A study of Mus musculus with 54 samples.

Results

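The comparison described here is the last day of a stimulated culture: small intestinal ILC2s kept with IL-2, IL-7 and IL-25 and harvested after 72 h, set against the same kind of culture harvested after 48 h. Its members are the libraries whose labels give IL-25 and one of these times, 4 libraries a time, 8 of the 24 culture libraries and of the 54 samples of the series, with every gene listed for them. The series profiled ILC2s of mouse small intestine by full-length RNA sequencing of bulk samples (Smart-seq2) and by chromatin assays, in culture and in mice with or without Rxrg, which encodes the nuclear receptor RXR gamma. All culture libraries carry the same labels for the animals: genotype WT, strain C57BL/6, age 8 to 12 weeks, males and females pooled. Cultures with IL-2 and IL-7 but no IL-25, 4 libraries at 48 h and 4 at 72 h, show what the same day does without IL-25, and 2 further groups, with and without IL-25, were harvested at 4 h. The labels do not say whether the 4 libraries of a group came from separate cultures or mice, so p-values measure only the spread between these libraries, which may be technical. They also do not say whether the mice had been treated before the cells were taken.

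Group 2 innate lymphoid cells (ILC2s) are tissue lymphocytes without antigen receptors that answer epithelial alarm cytokines. IL-25, released by tuft cells of the gut, acts through the receptor subunits Il17rb and Il17ra and drives them to divide and to secrete the type 2 cytokines IL-5, IL-13, IL-4 and IL-9. IL-2 and IL-7 keep them alive and growing, and Gata3 and Rora are the transcription factors that define the lineage.

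Values are TPM (a relative transcript abundance, normalised for gene length and library total) as deposited, given as mean ± SD of n = 4 libraries unless each library is listed. Fold changes are ratios of mean TPM, and log2 differences were taken after adding 1 to each TPM value, so they shrink the change of a gene of low level. Calls rest on limma, with an adjusted p below 0.05 after Benjamini-Hochberg adjustment over 10548 genes, and "rose" and "fell" are used of called genes only. The 8 libraries had 9595 to 9767 genes at 1 TPM or more and summed to between 884940 and 895008 TPM. They correlated at 0.990 to 0.993 with the rest of their group over all listed genes, and none stood apart. Their sequencing depth is unknown. The 10 most abundant genes held a larger share of the TPM at 72 h than at 48 h in each library, within 6.65% to 8.80%.

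The labels name the cells ILC2s, and all 12 marker genes on the ILC2 list were listed. Gata3 was at 295 and 523 TPM and Klrg1 at 815 and 929.8 TPM at the 2 times. Of the 12 markers 8 rose and 3 fell: Il7r (17.9 to 8.06), Il17rb (17.96 to 12.1) and Il2ra (235 to 152). Thy1, at 8.45 and 11.5 TPM, was not called. Most markers of other cells were not listed, and because the filter behind the listed genes is unknown, these cannot be called low. Of those listed, some were near 0 and others were not. Of 12 T cell markers 4 were listed, with Cd3e, a chain of the T cell receptor complex, at 1.24 and 1.33 TPM. The other 3 are shared with ILC2s and rose: Cd3g (24.3 to 35.5), Lat (44.1 to 120.05) and Zap70 (96.8 to 160.1). The markers of ILC3s and NK cells summed to at most 2.28 TPM in any library, with Il23r at 0 in all 8. Cd79b, a B cell receptor chain, rose from 83.7 ± 9.02 to 142 ± 11.4 TPM as the 1 listed gene of 9 B cell markers, and Epcam, an epithelial adhesion gene, rose from 31.4 to 45.2 and Krt18, a keratin gene, from 7.53 to 11.8 (adjusted p up to 0.52 over the alternatives) as the 2 listed of 15 epithelial markers. Cd68, of myeloid cells, was at 3.44 and 5.04 TPM, and the mast cell and progenitor gene Kit rose from 6.32 to 10.2. Erythroid and stromal markers, 3 and 2 of them listed, had no call. Tfrc, the transferrin receptor gene of dividing and erythroid cells, was at 26.8 and 21.4 TPM, Pecam1, of endothelial and blood cells, at 28.6 and 31.8, and Hba-a1, a haemoglobin gene with a near-identical copy, at 11.4 ± 5.72 and 13.03 ± 4.37 TPM with IL-25 and at 479 ± 21.8 and 622 ± 93.7 without. Summed over a list, T cell markers went from 155 to 178 TPM per library at 48 h to 302 to 334 at 72 h, and epithelial markers from 35.1 to 40.5 to 51.5 to 61.5. The part of such cells in the results was not tested. In bulk samples, fewer cells of a type and less RNA per cell cannot be told apart.

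Between 48 and 72 h with IL-25, more genes rose than fell in the lists for cytotoxic granules, inhibitory and costimulatory receptors, glycolysis and the hypoxia response, interferon response with antigen processing, and S100, galectin and annexin proteins. More fell than rose in those for ribosome biogenesis, mitochondrial ribosomal proteins, DNA replication, heat shock and the proteasome. Of 10548 genes tested, 1412 (13.4%) were called higher and 1883 (17.9%) lower at 72 h, and 383 of these differed at least 2-fold, 250 upward and 133 downward. The list counts given below are to be read against these shares, and several are near them. The same day without IL-25 left far fewer calls: 30 genes higher (0.284%) and 10 lower (0.0948%), with 1226 genes at an unadjusted p under 0.05 by limma. The difference between the 2 time steps, tested directly, was called for 551 genes in the direction of a higher step with IL-25 (5.22%) and for 1002 in the direction of a lower one (9.5%). The balance of directions depended on the scaling: by the median of ratios 1871 genes were called higher and 1646 lower with IL-25 (53.2% higher in place of 42.9%), and the share of higher calls for the difference went from 35.5% to 58.8%, or to 53.3% after quantile normalization. For that difference the median over all genes moved from -0.09 to 0.02 log2 with the median of ratios.

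**Figure D1:**
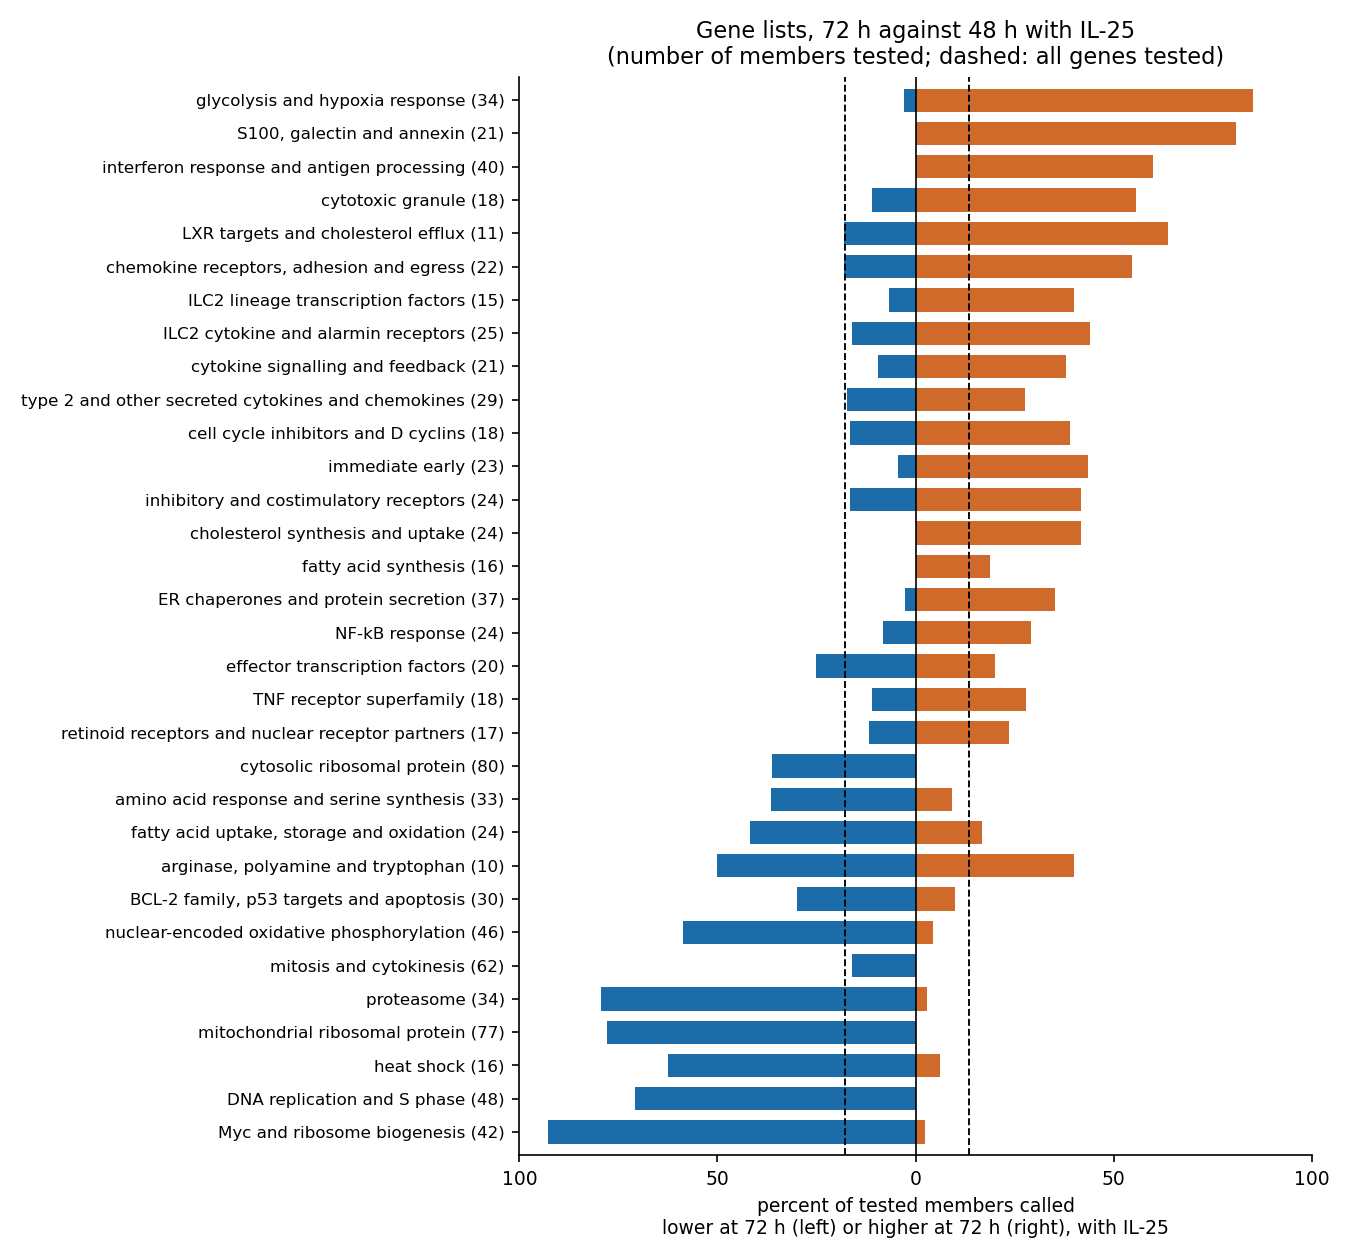
Share of the tested members of each gene list shown that were called higher (right, orange) or lower (left, blue) at 72 h than at 48 h with IL-25, in percent. The number of members tested is in brackets, and the lists are ordered by median log2 difference. Cell type marker lists and the clustered histone list are not shown. Dashed lines mark the shares over all genes tested, 13.4% higher and 17.9% lower: glycolysis with the hypoxia response reaches 29 of 34 members higher at the top, and ribosome biogenesis 39 of 42 lower at the bottom.

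Cytotoxic granule genes made the most abundant gain of the last day. Gzmb, which encodes granzyme B, a serine protease of killer cell granules, was at 1573, 1646, 1692 and 1653 TPM in the 4 libraries at 48 h and at 10865, 11694, 9989.7 and 11849.99 TPM at 72 h. Each library at 72 h held several times the level of any library at 48 h, a 6.76-fold rise (2.75 ± 0.40 SE log2, adjusted p = 8.1e-06). It had been near absent at 4 h with IL-25 (6.31 ± 3.01 TPM), and without IL-25 it was at 51.9 ± 38.7 TPM at 48 h and 94.5 ± 39.8 at 72 h, so the gain was 1.70 log2 larger with IL-25 (adjusted p = 0.045). The gene lies at chr14:56258836-56262334 in GRCm38.p6, beside related granzyme genes, so some of its reads may be shared with them. Gzma, encoding granzyme A (chr13:113093824-113100981), was at 1639.6, 1427, 1825 and 1695 TPM at 48 h and 3586, 4905, 4656 and 4462 at 72 h, a 2.67-fold rise with no overlap (adjusted p = 0.0012). Without IL-25 the same gene fell, from 17.3 ± 8.28 to 5.52 ± 4.63 TPM (log2 -1.54, adjusted p = 0.029), and the steps differed by 2.95 ± 0.45 log2 (adjusted p = 5.7e-05).

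Other genes of the granule list rose as well. Of the 18 granule genes tested, 10 rose and 2 fell, with a median log2 difference of 0.50 against -0.04 over all genes tested. Nkg7, a granule membrane protein, rose from 15.8 ± 2.33 to 57.8 ± 2.48 TPM, Prf1, the pore-forming perforin, from 11.6 ± 0.518 to 30.6 ± 4.11, and Ctsw, the protease cathepsin W, from 5.503 ± 2.04 to 12.4 ± 2.89. At 72 h the cells thus held 30.6 TPM of perforin beside 11099.6 TPM of granzyme B. The falls were Stx11, a syntaxin needed for granule fusion (77 ± 11.6 to 42.2 ± 8.56 TPM), and Ctsc, the protease that activates granzymes (89.3 to 74, adjusted p up to 0.055 over the alternatives). The summed TPM of the list went from 5800 to 6362 per library at 48 h to 18725 to 21719 at 72 h. Without IL-25 no granule gene was called higher and 1, Gzma, was called lower.

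**Figure D2:**
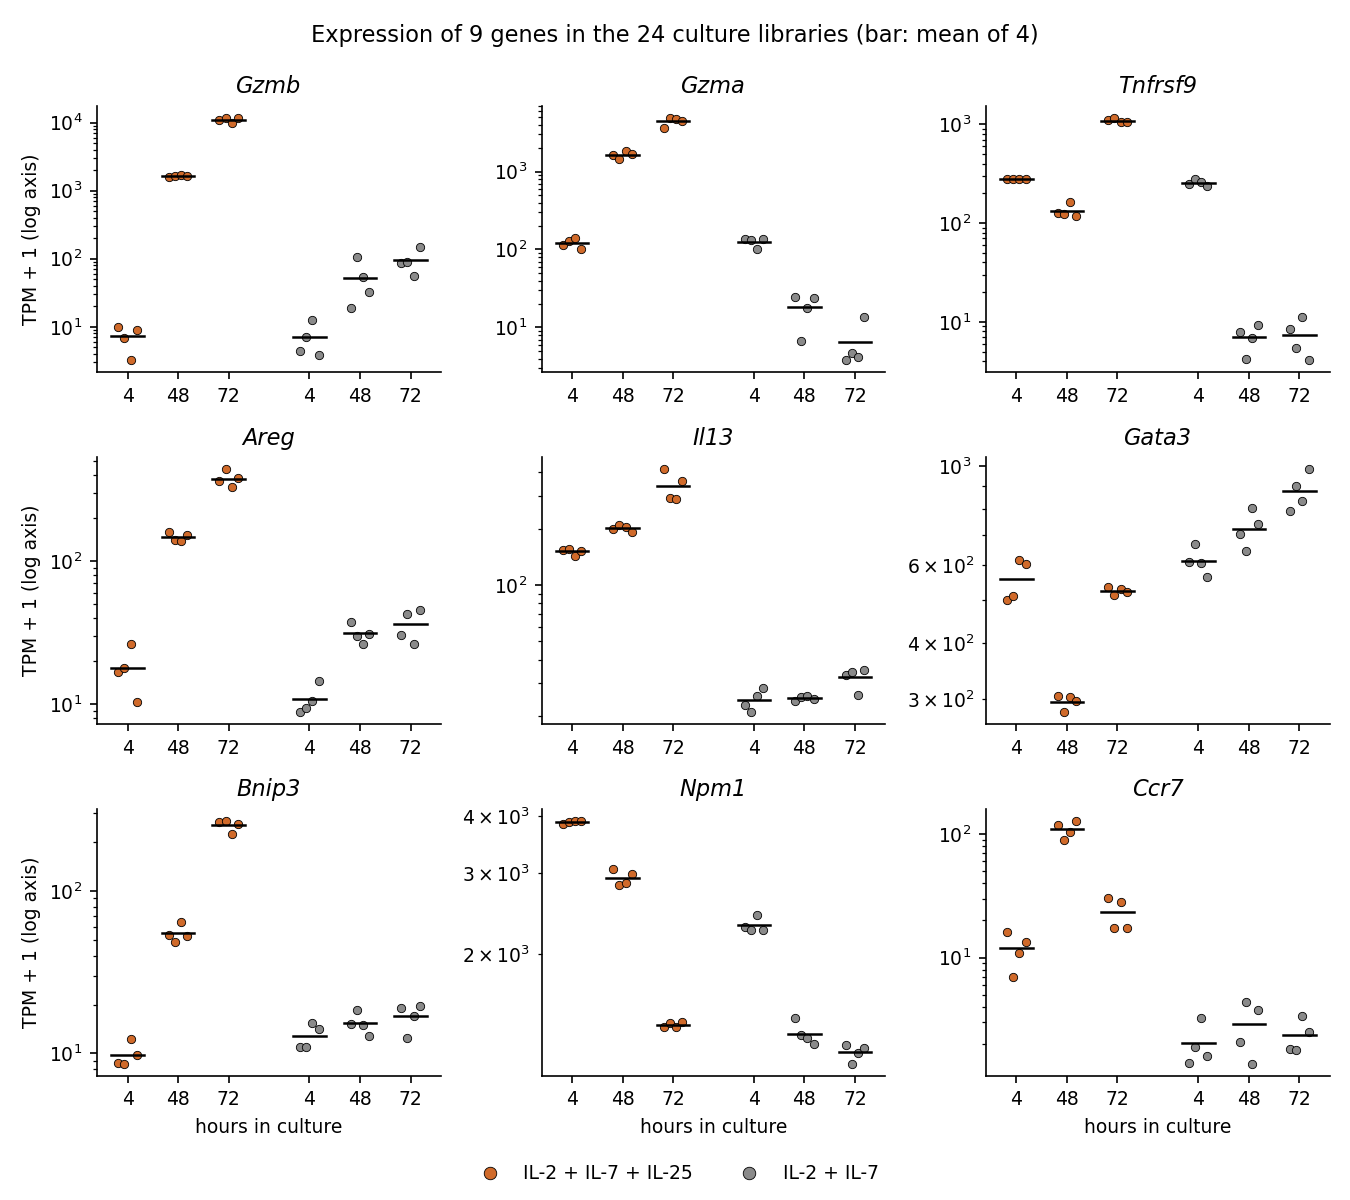
TPM + 1 on a log axis for 9 genes in the 24 culture libraries, each point a library and each bar the mean of 4, by hours in culture with IL-25 (orange) and without (grey). Gzmb, Gzma, Tnfrsf9, Areg, Il13, Gata3 and Bnip3 are higher at 72 h than at 48 h with IL-25 and Npm1 and Ccr7 lower, with no overlap between the libraries of the 2 times.

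The TNF receptor list held 2 of the larger rises, those of Tnfrsf9 and Tnfrsf18, and few other calls. Tnfrsf9, encoding the costimulatory receptor 4-1BB (chr4:150920155-150946104), was at 124, 121, 163 and 116 TPM at 48 h and 1099, 1169, 1046 and 1056 at 72 h, 8.32-fold higher (3.06 ± 0.22 SE log2, adjusted p = 7.1e-11). Its course was not one of steady gain: at 4 h with IL-25 it stood at 279 ± 1.65 TPM, above the 48 h level. Without IL-25 it was high at 4 h as well, at 249, 276, 260 and 238 TPM. It was then at 6.05 ± 2.14 TPM at 48 h and 6.29 ± 3.18 at 72 h. The steps from 48 to 72 h differed by 3.06 log2 (adjusted p = 2e-07). Tnfrsf18, encoding GITR, another costimulatory receptor, was at 307, 316, 345 and 368 TPM and then 1100.1, 959, 920 and 1049, a 3.02-fold rise without overlap. Cd27, a costimulatory receptor (12.5 to 31.8 TPM), Tnfrsf1b, a receptor for TNF (94.7 to 151), and Tnfrsf26 (5.36 to 8.63) rose as well. Tnfrsf25, the receptor for the ILC2-activating cytokine TL1A, fell from 27.7 ± 4.06 to 11.6 ± 1.87 TPM, and Tnfrsf10b, a death receptor, from 6.2 to 4.07 (adjusted p up to 0.14 over the alternatives, with 1 fall left on the list without replicate 1 or 3 at 48 h or replicate 2 or 4 at 72 h). In all, 5 of 18 members rose and 2 fell, and the median of 0.01 changed sign under 7 of the 16 alternatives.

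Il5, Il13 and the repair factor Areg rose further, and Il9 and Il10 fell. Il5, the eosinophil growth factor, was at 2333, 1949, 2026 and 2095 TPM at 48 h and 3449.7, 2949, 2673 and 3568 at 72 h, a 1.504-fold rise without overlap (0.58 log2, adjusted p = 0.0028). Il13, which drives mucus and smooth muscle responses, went from 199, 208, 202 and 191 to 413, 292, 286 and 360 TPM, 1.69-fold higher and again without overlap (adjusted p = 7.1e-06). Without IL-25 the 2 genes stood at 187 ± 13.02 and 23.9 ± 0.627 TPM at 48 h and 206 ± 51.8 and 31.1 ± 4.16 at 72 h, and the time step was not shown to differ with IL-25 (difference 0.48 log2, adjusted p = 0.13, and 0.38 log2, adjusted p = 0.1). Areg, encoding amphiregulin, an epithelial growth factor of tissue repair, rose 2.58-fold, from 158, 139, 138 and 150.4 to 360.1, 438, 331 and 381 TPM (adjusted p = 1.2e-05), by 1.16 log2 more than without IL-25 (adjusted p = 0.007). Calca, which encodes the neuropeptide CGRP, was at 13.8, 9.36, 9.64 and 8 TPM at 48 h and 47.6, 31.5, 39.6 and 48.9 at 72 h. Its level at 4 h with IL-25 had been 2288 ± 97.02 TPM, and the rise of the last day was 4.105-fold. It was also called without IL-25 (13.7 ± 3.04 to 27.2 ± 9.72 TPM, adjusted p = 0.032), by less (difference 1.05 log2, adjusted p = 0.0084). Ltb, encoding lymphotoxin beta, rose from 6.08 ± 1.53 to 13.9 ± 7.51 TPM, with its 72 h libraries spread over 23.5, 7.75, 8.06 and 16.4.

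Il9, a cytokine that acts back on ILC2s, was at 55.6, 26.6, 11.3 and 40.4 TPM at 48 h and 14.98, 14.2, 1.29 and 2.67 at 72 h. The groups overlapped, and the log2 difference was -2.15 ± 0.48 (adjusted p = 0.0011). At 4 h with IL-25 the gene had been at 16277 ± 1863 TPM. Il10, which restrains immune responses, was near 0 at 4 h (0.245 ± 0.198 TPM), at 224, 151, 198 and 207 TPM at 48 h and at 136, 135, 124 and 158 at 72 h. The libraries overlapped, and the fall was -0.48 log2 (adjusted p = 0.021). With a pseudocount of 0.1 the difference was -0.49 but was not called (adjusted p = 0.51), and the call was also lost after quantile normalization and without replicate 1 or 4 at 48 h or replicate 3 at 72 h. Il24, a cytokine of the IL-10 family, fell from 15.2 ± 2.53 to 3.13 ± 1.82 TPM, and the neutrophil chemokine gene Cxcl3 from 4.15 ± 1.65 to 1.02 ± 0.815. Il6, an inflammatory cytokine, was low at both times (3.32 to 1.97 TPM, adjusted p = 0.043, up to 0.2 over the alternatives). Il22, a cytokine of barrier defence, was at 0.27, 0.26, 0 and 4.89 TPM and then 0.44, 0.28, 0.24 and 13.1, with 1 high library at each time (adjusted p = 0.61). Csf2, encoding GM-CSF, was listed at 0 in 7 of the 8 libraries and at 0.34 TPM in the last. Of the 29 secreted factors tested, 8 rose and 5, a share near that of all genes, fell (3 fell without replicate 1 at 48 h or without replicate 3 at 72 h). Their median of 0.24 was 0.03, 0.14 and 0.06 without replicate 1, 3 or 4 at 72 h.

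Of 25 cytokine and alarmin receptors 11 rose and 4 fell, with a median of 0.30, and 7 rose without replicate 1 at 72 h. The falls, a share near that of all genes, were Il17rb, Il7r, Il2ra and Ptger2. Il17rb, the subunit that binds IL-25, was at 19.99, 17.2, 18.4 and 16.3 TPM at 48 h and 11.8, 11.4, 14.1 and 11.3 at 72 h, a log2 difference of -0.53 without overlap (adjusted p = 5.4e-05), against 124 ± 15.6 and 141 ± 8.86 TPM without IL-25. Its partner subunit Il17ra rose, from 8.78 ± 1.49 to 16.1 ± 3.16 TPM. Il7r, the IL-7 receptor chain, fell from 17.9 ± 4.81 to 8.06 ± 3.01 and Il2ra, the high-affinity chain of the IL-2 receptor, from 235 ± 26.6 to 152 ± 19.2. Both Il17rb (difference -0.72 log2, adjusted p = 0.0003) and Il2ra (-0.50, adjusted p = 0.019) had a lower step with IL-25 than without. Il1rl1, the receptor for the alarm cytokine IL-33, was at 144, 106, 113 and 118 TPM at 48 h and 164, 187, 162 and 174 at 72 h, 1.43-fold higher with no overlap (adjusted p = 0.00082). Nmur1, the receptor for the neuropeptide neuromedin U, went from 211, 189, 221 and 202 to 445, 442, 459 and 404 TPM, a 2.13-fold rise without overlap. Ptger2, a receptor for the inhibitory lipid PGE2, fell from 5.51 to 3.197. Klrg1, an inhibitory lectin used as an ILC2 marker, rose by the smallest step of these, from 815 ± 22.5 to 929.8 ± 43 TPM (log2 0.19, adjusted p = 0.0037).

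Of 15 lineage transcription factors 6 rose and 1 fell, with a median of 0.30, and the largest rise was that of Id2. Gata3 was at 304, 279, 301 and 295 TPM in the 48 h libraries and 533, 512, 528 and 519 at 72 h, a narrow spread at both times and a rise of 0.82 ± 0.08 log2 (adjusted p = 5.1e-09). With IL-25 it had been at 556 ± 59.5 TPM at 4 h, and without IL-25 it was at 723 ± 67.1 and 877 ± 83 TPM at 48 and 72 h. Id2, the inhibitor of DNA binding that all innate lymphoid cells need, rose from 389, 354, 384 and 329 to 941, 910.2, 865 and 822 TPM, 2.43-fold. Ets1 (79.8 to 149.7), Runx1 (13.2 to 28.1) and Runx3 (20.2 to 28.8), factors of lymphocyte development, rose too. Rora rose by less, from 45.9, 31.99, 33.7 and 34.6 to 49.1, 46.8, 46.6 and 47.7 TPM (0.39 log2, adjusted p = 0.011). Pparg, a nuclear receptor of lipid metabolism that supports ILC2 activity, fell from 75.3, 52.3, 60.2 and 74.7 to 46.1, 43.4, 28.04 and 40.8 TPM (log2 -0.72, adjusted p = 0.00087), the 1 fall of the list.

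Among effector factors the changes ran both ways, 4 of 20 higher and 5 lower, against 13.4% and 17.9% of all genes tested. The list median of 0.04 changed sign when replicate 2 or 4 at 48 h or replicate 3 at 72 h was left out. Bhlhe40, a repressor that permits cytokine production in lymphocytes, was at 3.56, 2.54, 8.7 and 4.35 TPM at 48 h and 22.3, 32.3, 28.2 and 21.5 at 72 h, 5.45-fold higher. Id3 rose from 12.3 ± 2.46 to 34.4 ± 2.91 TPM, and it rose without IL-25 as well (24.9 ± 3.62 to 59.3 ± 4.46, adjusted p = 0.0034). Irf8, an interferon-related factor (6.66 to 12.98), and Maf, an activator of Il10, (41.1 to 55.01) rose by less. Zbtb32, a zinc finger repressor of activated lymphocytes, was at 52.3, 44.6, 53.9 and 56.7 TPM and then 18.3, 13.2, 13.1 and 11.03, and Irf4, a factor of effector differentiation, at 23.6, 20.3, 20.9 and 22.5 and then 6.19, 6.25, 9.3 and 6.63. Both fell by more than 2-fold with all 72 h libraries below all 48 h libraries. The smaller falls of Batf (423 to 353, adjusted p up to 0.17), Ikzf3 (132 to 95.6, up to 0.066) and Myb (7.93 to 4.85, up to 0.2) ended under some alternatives, and 3 factors fell without replicate 1 at 48 h.

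Several genes on the list of inhibitory and costimulatory receptors were among the strongest gains. Pvrig, which binds a nectin and restrains killer cells, was at 1.69, 1.34, 1.35 and 2.3 TPM at 48 h and 13.8, 14.98, 14.5 and 11.3 at 72 h. Lilr4b went from 29.6, 23.7, 24.7 and 24.8 to 128, 156, 137 and 131 TPM and Lilrb4a from 34.9, 38.5, 61.04 and 25.4 to 171, 230.4, 178 and 207, 2 near-identical receptor genes whose reads cannot be fully assigned to one of them. Vsir, encoding VISTA, rose from 3.46 ± 1.36 to 18.3 ± 2.08 TPM and Cd200r1, the receptor for CD200, from 41.8 ± 4.84 to 100.3 ± 5.56. These genes were named for the size of their change, so their lack of overlap between the times is no further result. Pdcd1, encoding PD-1, went the other way, from 25.9, 15.9, 25.9 and 26.3 to 14.8, 9.92, 10.4 and 12.4 TPM, also without overlap, as did Cd160, a receptor of killer cells (8.35 to 2.495), Lag3, which binds MHC class II (13.9 to 9.04, adjusted p up to 0.4) and Nt5e, the ectoenzyme CD73 (6.67 to 4.08, up to 0.092). The list counted 10 rises and 4 falls among 24 genes, the falls a share near that of all genes, with a median of 0.21.

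Of 22 genes of chemokine receptors, adhesion and egress 12 rose and 4 fell, with a median of 0.33. The falls, a share near that of all genes, were Ccr7, S1pr1, Ccr4 and Itga4. Ccr7, the chemokine receptor that guides lymphocytes to lymph nodes, was at 117, 88.5, 103 and 126 TPM at 48 h and 29.4, 16.4, 27.4 and 16.5 at 72 h, a log2 difference of -2.26 ± 0.33 SE without overlap (adjusted p = 6.5e-06). It had been at 10.9 ± 3.94 TPM at 4 h with IL-25 and without it was at 1.92 ± 1.42 and 1.37 ± 0.729 at the later times. S1pr1, the receptor for lymphocyte exit from tissue, fell from 27.6, 21.98, 24.4 and 19.8 to 9.22, 8.7, 13.3 and 7.36 TPM (adjusted p = 0.00079, but 0.14 with a pseudocount of 0.1). Ccr4, a chemokine receptor of type 2 lymphocytes (66.3 to 30.8), and the integrin gene Itga4 (86.9 to 37.6) fell too. Cd69, which holds lymphocytes in tissue by blocking S1pr1, rose from 54.1, 45.9, 50.3 and 52.6 to 99.7, 126, 113 and 105 TPM. Ccr2, a receptor for monocyte chemokines, rose from 8.78 to 25.6 and, without IL-25, from 43.4 ± 7.47 to 84.7 ± 18.04 (adjusted p = 0.022), and the collagen-binding integrin gene Itga2 from 4.3 ± 2.73 to 17.4 ± 5.05. The retention and exit genes Cd69 and S1pr1 each had no overlap between the times, but the share of all genes without overlap is not given.

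Nearly the whole list for glycolysis and the hypoxia response rose. Of 34 genes tested 29 rose, 1 fell and 4 were not called, with a median of 0.83 against -0.04 over all genes, and for 26 the step was called higher with IL-25 than without, where none was called. Aldoc, a fructose bisphosphate aldolase, was at 8.28, 5.36, 6.02 and 4.52 TPM at 48 h and 40.2, 48.1, 40.5 and 40.9 at 72 h (7.02-fold, 2.65 ± 0.22 SE log2, adjusted p = 7.7e-10). Ankrd37, a known target of the hypoxia-inducible factor, went from 18.5, 15.7, 16.96 and 16.2 to 105, 134, 106 and 91.6 TPM. Bnip3, a mitophagy receptor, went from 52.8, 47.8, 63.5 and 51.7 to 263, 268, 224 and 258. The other named rises were Egln3, an oxygen-sensing prolyl hydroxylase (31.7 ± 1.76 to 140.5 ± 6.36), the glucose transporter gene Slc2a3 (7.46 ± 2.37 to 38.5 ± 4.51) and Ddit4, an inhibitor of mTORC1 (4.79 ± 0.6598 to 20.9 ± 6.897). These 6 genes were picked as the largest called changes of the list. That their libraries of the 2 times did not overlap is therefore no further result. Slc16a1, a lactate transporter, was the 1 fall (17.95 ± 3.03 to 9.002 ± 1.62). Levels in the 48 h libraries without IL-25 were 2.69 ± 0.825 TPM of Aldoc, 12.7 ± 2.77 of Ankrd37 and 14.4 ± 2.399 of Bnip3.

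**Figure D3:**
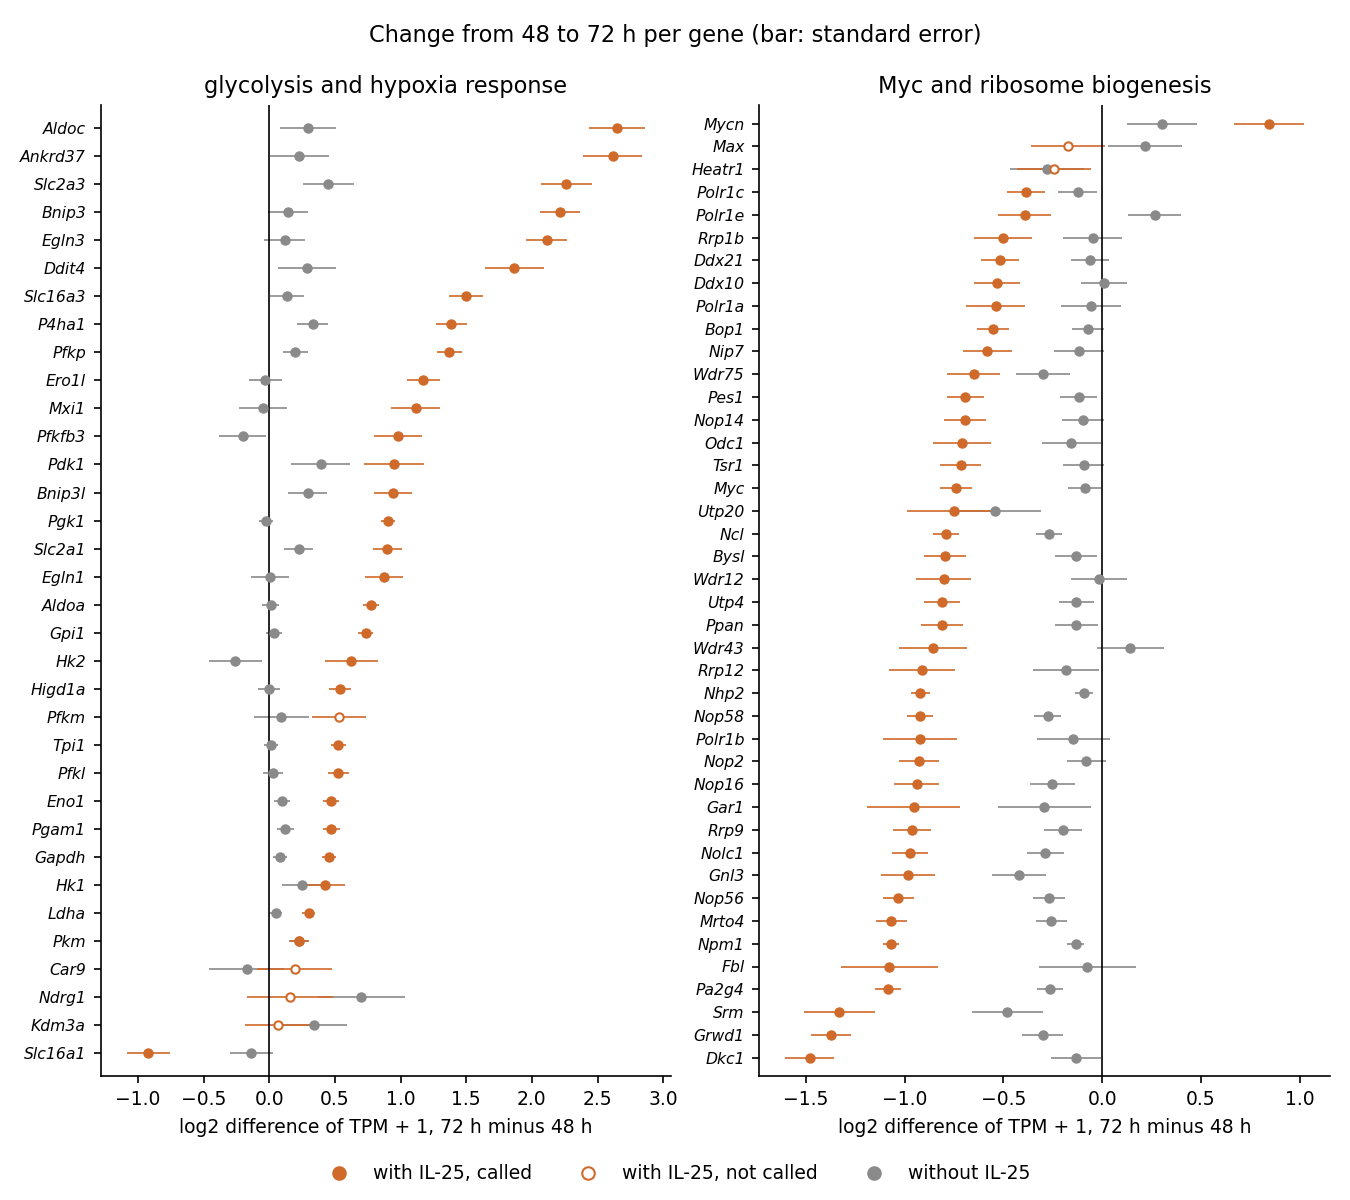
Log2 difference of TPM + 1 between 72 h and 48 h for each tested gene of the list with the highest median, glycolysis and hypoxia, and the list with the lowest, ribosome biogenesis, with IL-25 (orange, open where not called) and without (grey), bars showing the standard error. Most glycolysis and hypoxia genes lie right of their grey points, up to 2.65 for Aldoc, and most ribosome biogenesis genes lie left of them, down to -1.48 for Dkc1.

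The hypoxia-inducible factors bind DNA at the core ACGTG, which also forms part of the E-box CACGTG, so promoters of the 2 leading genes are shown with that core, on either strand, in capitals. The sequences run from 250 bases before to 50 bases after the start site, 5′ to 3′ on the strand of the gene, from RefSeq on GRCm38.p6. Aldoc lies at chr11:78322823-78323122 on the plus strand, with its 1 match 27 bases past the start site, and Ankrd37 at chr8:45999801-46000100 on the minus strand, with 2 matches.
Aldoc: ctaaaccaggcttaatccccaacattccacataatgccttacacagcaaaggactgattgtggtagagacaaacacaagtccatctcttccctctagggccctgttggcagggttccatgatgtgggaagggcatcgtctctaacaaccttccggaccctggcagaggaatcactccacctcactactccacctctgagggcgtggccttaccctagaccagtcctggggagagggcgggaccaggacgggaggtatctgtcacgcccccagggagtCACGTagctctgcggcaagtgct
Ankrd37: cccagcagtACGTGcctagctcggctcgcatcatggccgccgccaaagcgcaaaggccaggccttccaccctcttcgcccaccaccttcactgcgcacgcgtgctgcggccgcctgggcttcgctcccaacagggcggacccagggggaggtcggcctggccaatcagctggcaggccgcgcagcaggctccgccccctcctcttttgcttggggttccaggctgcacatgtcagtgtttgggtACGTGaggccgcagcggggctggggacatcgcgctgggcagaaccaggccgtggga
Of the 47 promoters given for 30 of the 34 genes, 27 (57.4%) hold the core, against 26.3% of the 10882 promoters of tested genes and 19.6% of all 32851. Among the promoters of those that rose, the share was 23 of 38 (60.5%). These are letters in a window, and binding was not measured here.

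Transcripts for ribosome biogenesis fell across nearly the whole list. Of 42 genes for Myc and ribosome biogenesis 39 fell and 1 rose, with a median of -0.81, and for 29 the step was called lower with IL-25 than without. Npm1, a nucleolar chaperone, was at 3071, 2826, 2852 and 2986 TPM at 48 h and 1381, 1411, 1380.2 and 1418 at 72 h, against 1337 ± 75.8 and 1218 ± 50.6 TPM without IL-25. Each 72 h library was below each 48 h library. Dkc1, which modifies ribosomal RNA, fell from 327, 244, 281 and 254 to 103, 108, 82.1 and 100.3 TPM, the largest fall of the list (-1.48 ± 0.12 log2, adjusted p = 1.3e-09). Grwd1, a ribosome assembly factor (68.5 ± 7.41 to 25.8 ± 0.964), the growth regulator gene Pa2g4 (363 ± 22.5 to 171 ± 9.68), Fbl, the ribosomal RNA methyltransferase fibrillarin (72.5 ± 4.55 to 33.9 ± 3.3), and Srm, spermidine synthase (150.1 ± 14.2 to 59.2 ± 6.31), fell as well. Myc itself, the factor that drives this programme, was at 88.4, 91.6, 101 and 96.9 TPM at 48 h and 61.9, 51.95, 60.9 and 50.5 at 72 h, a log2 difference of -0.74 (adjusted p = 1.6e-07), after 599.8 ± 28.9 TPM at 4 h. Mycn, its relative, was the 1 rise (5.45 ± 0.404 to 10.6 ± 1.65).

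Mitochondrial ribosomal proteins fell in 60 of 77 cases and rose in none, with a median of -0.43. Mrpl38, of the large subunit, went from 44.9, 41.8, 42.8 and 49.4 to 21.5, 22.5, 22.7 and 17.7 TPM, the small-subunit genes Mrps6 from 135 to 68.6 and Mrps22 from 60.1 to 31.2. These subunits translate the few proteins encoded by mitochondrial DNA. Of 80 genes for proteins of the cytosolic ribosome and close relatives 29 fell and none rose, with a median of -0.11, and after scaling by the median of ratios 9 fell. Such genes have near-identical pseudogenes that may share reads. Of 46 nuclear genes for oxidative phosphorylation 27 fell (17 after the median of ratios) and 2 rose, with a median of -0.19. Cyc1, of complex III, fell from 376 ± 63.95 to 224 ± 25.7 TPM, cytochrome c (Cycs) from 357 ± 41.1 to 233 ± 37.5 and the ATP synthase gene Atp5g1 from 696 ± 33.8 to 451 ± 19.9. The 2 rises were Ndufa1, of complex I (572 ± 22.6 to 822 ± 72.8), and Cox6c, of complex IV (816 to 1012).

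Chaperone and proteasome genes fell in most cases. Of 16 heat shock genes 10 fell and 1 rose, with a median of -0.46. Hspd1, the mitochondrial chaperonin, was at 523, 457, 479 and 492 TPM at 48 h and 201, 203, 219 and 184 at 72 h, without overlap. Its partner Hspe1 fell from 602 ± 52.6 to 319 ± 15.3, and the cytosolic chaperone gene Hsp90aa1 from 1003 ± 38.97 to 477 ± 13.8. The small heat shock gene Hspb1 rose from 1.498 to 7.54 TPM. Of 34 proteasome genes 27 fell, with a median of -0.34, among them the core subunit gene Psma3 (925 ± 53.1 to 649 ± 40.97) and the cap subunit gene Psmd7 (254 ± 20.4 to 176 ± 7.05). The 1 rise was Psme2, of the interferon-induced activator (364 ± 7.31 to 463 ± 37.5).

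Most DNA replication genes fell, and few mitosis genes did. Of 48 replication genes 34 fell and none rose (1 rose after scaling by the median of ratios), with a median of -0.46. Without IL-25 their median was -0.25, with 1 gene called lower. Mcm7, of the replicative helicase, was at 185, 178, 179 and 174 TPM at 48 h and 111, 107, 120.1 and 107 at 72 h (-0.68 ± 0.09 log2, adjusted p = 1.6e-06), against 162 ± 18.9 and 128 ± 7.23 without IL-25. Rfc5, a clamp loader subunit, fell from 112 ± 17.95 to 66.1 ± 10.7, Tyms, thymidylate synthase, from 195 ± 19.7 to 119 ± 8.94 and Lig1, DNA ligase, from 87.1 ± 6.06 to 54.2 ± 7.11. Mki67, the gene of the proliferation marker Ki-67, was at 19.1, 16.4, 16.9 and 15.5 TPM and then 14.9, 15.8, 17.6 and 14.2 (log2 -0.11, adjusted p = 0.7), with overlapping libraries. Of 62 mitosis genes 10 fell, a share near that of all genes, with a median of -0.27. That count depended on the fit, at 5 with a pseudocount of 0.1, 6 without replicate 3 at 48 h and 29 where the 2 groups were fitted alone. The condensin genes Smc2 (181 ± 15.97 to 115 ± 17.4) and Smc4 (235 ± 17.2 to 163 ± 15.4) were among them. Of 18 cell cycle inhibitors and D cyclins with their kinases 7 rose and 3 fell (1 under 5 alternatives), with a median of 0.24. The inhibitor gene Cdkn1b, or p27, rose from 13.7, 10.96, 12.6 and 7.64 to 24.03, 23.6, 24.1 and 26.2 TPM, and the antiproliferative genes Btg1 (8.99 ± 1.29 to 21.4 ± 0.832) and Btg2 (12 ± 1.104 to 25.4 ± 1.71) and the stress gene Gadd45g (182 ± 10.5 to 353 ± 34.9) rose too. The kinase gene Cdk4 fell (641 ± 28.5 to 437 ± 25.3).

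E2F factors, which switch on S phase genes, bind TTTGGCGC or TTTCCCGC, and 2 promoters that hold one of these on either strand are shown with it in capitals. They belong to the called replication genes with the largest differences among those whose promoter holds a match, Mcm7 (chr5:138171834-138172133, minus strand) and Rfc3, a further clamp loader gene (chr5:151651159-151651458, minus strand). Rfc3 went from 67.6, 61.5, 69.1 and 59.8 to 44.6, 41.2, 44.6 and 43.8 TPM.
Mcm7: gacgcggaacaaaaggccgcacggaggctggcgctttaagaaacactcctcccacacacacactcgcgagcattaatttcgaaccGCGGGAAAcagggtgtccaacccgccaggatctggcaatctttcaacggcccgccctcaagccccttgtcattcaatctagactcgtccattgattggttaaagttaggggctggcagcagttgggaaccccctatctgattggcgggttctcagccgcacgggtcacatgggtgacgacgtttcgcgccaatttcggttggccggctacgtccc
Rfc3: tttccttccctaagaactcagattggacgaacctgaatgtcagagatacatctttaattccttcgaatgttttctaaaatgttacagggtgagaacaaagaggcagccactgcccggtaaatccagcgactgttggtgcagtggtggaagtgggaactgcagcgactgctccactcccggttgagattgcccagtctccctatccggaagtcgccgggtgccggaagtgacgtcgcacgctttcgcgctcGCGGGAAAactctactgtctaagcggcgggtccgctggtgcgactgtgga
Of the 47 promoters given for 39 replication genes 12 (25.5%) hold such a motif, against 3.08% of the promoters of tested genes and 1.56% of all. Among 56 promoters of 53 mitosis genes, 43 (76.8%) hold the CCAAT box CCAAT and 42 (75.0%) the cell cycle element TTTGAA, against 38.2% and 12.3% of the promoters of tested genes. Among the promoters of replication genes that fell, 7 of 32 (21.9%) hold the E2F letters, near the share of the list as a whole.

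Lipid genes moved in several directions. Of 24 cholesterol genes 10 rose and none fell, with a median of 0.18. Fdps, which makes farnesyl diphosphate, was at 271, 296, 294 and 294 TPM at 48 h and 431, 449, 440.3 and 409.9 at 72 h (1.497-fold, adjusted p = 1.4e-06). Msmo1, a sterol oxidase (49.8 ± 5.001 to 76.7 ± 8.45), Lss, lanosterol synthase (36.9 ± 3.42 to 56.1 ± 13.6), and Insig1, the sterol-induced brake of the pathway (37.9 ± 3.605 to 53.9 ± 2.604), rose too. Hmgcs1, HMG-CoA synthase, went from 34.5, 28.4, 28.2 and 18.96 to 41.8, 46.2, 46.5 and 29.6 TPM with overlap (adjusted p = 0.012, and 0.071 without replicate 4 at 48 h). Its promoter (chr13:119690101-119690400, plus strand) is shown because it alone of 20 given for 17 genes of the list holds the sterol response element TCACNCCAC, in capitals.
Hmgcs1: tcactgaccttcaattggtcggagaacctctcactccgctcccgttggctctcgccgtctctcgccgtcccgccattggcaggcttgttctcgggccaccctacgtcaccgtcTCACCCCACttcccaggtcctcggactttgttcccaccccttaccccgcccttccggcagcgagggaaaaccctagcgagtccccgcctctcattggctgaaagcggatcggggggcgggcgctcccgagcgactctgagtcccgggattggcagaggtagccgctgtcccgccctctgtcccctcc
That is 5.0% of the list promoters, against 1.1% of those of tested genes.

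In fatty acid synthesis 3 of 16 genes rose, against 13.4% of all genes tested, and none fell, with a median of 0.14. The rises were the desaturase genes Scd1 (0.998 to 3.15 TPM), Scd2 (57.99, 57.1, 54.8 and 56.5 to 93.03, 95.6, 92.8 and 94.2) and Fads2 (5.63 to 10.4, adjusted p up to 0.19). Dgat1, which makes triglyceride, rose from 48.7, 44.5, 44.5 and 39.7 to 100.1, 103, 93.2 and 97.1 TPM without overlap. Hilpda, an inhibitor of lipolysis and a hypoxia target, rose from 111 ± 11.2 to 251 ± 25.2 and the lipid droplet coat gene Plin3 from 20.8 ± 3.43 to 41.3 ± 9.67. Acsl4, an acyl-CoA synthetase, rose by less (11.8 to 15.8). These 4 were the rises among 24 genes that take up, store or oxidise fatty acids, and 10 fell (6 after quantile normalization), with a median of -0.13 (-0.07 without replicate 1 at 48 h), among them the fatty acid binding protein gene Fabp5 (152 ± 7 to 105 ± 6.17) and the oxidation enzyme gene Hadh (68.97 ± 4.62 to 42.9 ± 4.13). Of 11 LXR targets and efflux genes 7 rose and 2 fell (1 under 7 alternatives), with a median of 0.44. Npc2, a lysosomal cholesterol carrier, rose from 64.02, 60.5, 63.2 and 63.2 to 137, 141, 138 and 162 TPM, Soat1, which esterifies cholesterol, from 39.7 ± 4.15 to 67.3 ± 12.1 and the exporter gene Abcg1 from 12.5 ± 1.81 to 18.4 ± 0.941. The falls were Apoe, the lipid carrier (3.08 to 1.06, adjusted p up to 0.11) and Scarb1, a receptor for HDL (29.1 to 22.6, up to 0.092).

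Of 33 genes of the amino acid response and serine synthesis 12 fell and 3 rose, with a median of -0.12 (-0.19 without replicate 2 or 4 at 48 h). Shmt1, which moves one-carbon units from serine in the cytosol, was at 76.5, 85.4, 80.6 and 90.3 TPM at 48 h and 30.4, 33.4, 25.4 and 30.9 at 72 h, without overlap. Its mitochondrial relative Shmt2 (188 ± 14.7 to 120.4 ± 5.14), Phgdh, the entry enzyme of serine synthesis (329 ± 19.5 to 217 ± 18.7), and the stress protein gene Nupr1 (228 ± 15.3 to 91.4 ± 14.8) fell too. The rises were the stress genes Trib3 (0.733 to 5.51) and Ddit3 (10.2 ± 1.61 to 18.3 ± 3.05) and the amino acid transporter gene Slc3a2 (167 ± 1.18 to 211 ± 7.11). In the promoters of the list the amino acid response letters TGATGNAA occur in 10 of 31 (32.3%), against 2.14% of those of tested genes. Among the promoters of genes that fell, the share was 3 of 13 (23.1%).

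Of 37 genes of ER folding and secretion 13 rose, with a median of 0.13, including the disulfide isomerase genes P4hb (357, 324, 336 and 355 to 534, 508, 495 and 479 TPM) and Pdia3 (499 ± 47.3 to 666 ± 21.95), the prolyl isomerase gene Ppib (713 ± 21.9 to 1007 ± 41.5) and Dnajb9 (24.98 ± 3.401 to 36.8 ± 3.399), a co-chaperone of the unfolded protein response. The ER stress element occurs in 8 of 33 promoters of the list (24.2%) and in 0.138% of those of tested genes, but in 1 of the 14 (7.14%) of genes that rose. The 1 fall, Ssr1, a translocon subunit (72.5 to 62.6), ended under several alternatives (adjusted p up to 0.25). Of 10 genes of arginine, polyamine and tryptophan metabolism 4 rose and 5 fell (3 without replicate 1 at 48 h). The polyamine synthesis genes Odc1 (19.9 ± 4.35 to 11.6 ± 0.805), Sms (119.5 to 83.96), Amd1 (55.9 to 40.6, adjusted p up to 0.057) and Azin1 (63.1 to 47.1, up to 0.18) fell beside Srm, while the catabolic genes Sat1 (107 to 152) and Smox (28.9 to 46.6), the arginase gene Arg1 (97.3 ± 4.57 to 148 ± 26.2) and Tph1, of serotonin synthesis (424 ± 37.96 to 732 ± 23.2), rose.

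Of 40 genes of the interferon response and antigen processing 24 rose and none fell, with a median of 0.55. Isg20, an RNA exonuclease induced by interferon, was at 13.8, 11.4, 11.5 and 7.7 TPM at 48 h and 87.7, 106, 71.2 and 83.6 at 72 h (7.85-fold, adjusted p = 2.5e-12). Without IL-25 it stood at 80.1 ± 10.2 and 85.2 ± 14.2 TPM, so the libraries with IL-25 were far below those without it at 48 h and in the same range at 72 h, and the steps differed by 2.79 log2 (adjusted p = 1.3e-08). Zbp1, a sensor of foreign nucleic acid, rose from 42.5, 44.05, 43.8 and 41.9 to 86.96, 93.4, 85.4 and 89.95 TPM, Tapbp, which loads peptides onto MHC class I, from 96.3 ± 1.48 to 167 ± 8.84, the guanylate-binding protein gene Gbp4 from 29.1 ± 5.08 to 50.4 ± 11.5 and the regulator gene Irf1 from 42.8 ± 3.99 to 68.1 ± 5.54. Ifi27l2a, a further interferon-induced gene, rose from 7.57 to 15.9 (adjusted p up to 0.2). Without IL-25 3 of the 40 were called higher. S100, galectin and annexin genes, which bind calcium, sugars and membranes, rose in 17 of 21 cases and fell in none, with a median of 0.57. The membrane-binding gene Anxa2 went from 143, 119, 123 and 136 to 406, 333, 309 and 408 TPM, Crip1, a small zinc-binding protein gene, from 1016 ± 93.5 to 1913 ± 51.95, S100a11 from 164 ± 12.2 to 289 ± 22.1 and the scaffold gene Ahnak from 2.79 ± 1.18 to 11.7 ± 1.697.

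Signalling genes rose more often than they fell. Of 21 genes of cytokine signalling and feedback 8 rose and 2 fell (1 without replicate 1 at 48 h or replicate 2 or 4 at 72 h), with a median of 0.30 (0.18 without replicate 3 at 72 h): Stat4, which answers IL-12 and interferon, went from 15.98, 13.7, 14.8 and 12.7 to 39.2, 52.8, 47.5 and 44.2 TPM, and the feedback inhibitor genes Socs3 from 79.2 ± 8.08 to 166 ± 22.02 and Cish from 87.2 ± 5.31 to 157 ± 3.497. Stat5a, which carries IL-2 and IL-7 signals, fell (14.5 ± 3.05 to 9.55 ± 1.62), and so did the kinase gene Pim3 (35.98 to 25.4, adjusted p up to 0.14). Of 23 immediate early genes 10 rose (6 without replicate 1 at 72 h) and 1 fell, with a median of 0.23 (0.35 without replicate 1 at 48 h). The phosphatase genes Dusp6 (42.1, 36.6, 39.1 and 31.5 to 94.7, 119, 108 and 92.1 TPM) and Dusp1 (10.5 ± 2.29 to 22.98 ± 2.19) rose and the AP-1 gene Fosl1 fell (5.03 to 1.17). The NF-kB response list held 7 rises and 2 falls among its 24 genes, with a median of 0.10 (between 0.05 and 0.16 with 1 library left out). The falls were Tnip1, an inhibitor of the pathway (17.1 ± 1.71 to 11.7 ± 0.981), and the kinase gene Map3k8 (13.04 to 7.74). Among 30 genes of survival and the p53 response 9 fell and 3 rose, with a median of -0.17. Trp53, the gene of p53, fell from 155, 157, 160.3 and 183 to 104, 95.7, 110.1 and 99.7 TPM and Aen, of the same list, from 65.6 ± 3.45 to 35.4 ± 4.76. The survival genes Bcl2 (4.11 ± 0.261 to 11.9 ± 0.923) and Bcl2l1 (131 ± 7.18 to 167 ± 6.13) and the stress gene Sesn1 (67.7 ± 4.67 to 149.9 ± 3.66) rose.

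Rxrg, the gene the series is about, was low throughout with IL-25. It was at 2.79, 2.85, 4.13 and 4.82 TPM at 48 h and 1.83, 3.07, 4.66 and 2.19 at 72 h, with overlap and no call (log2 -0.27 ± 0.20 SE, adjusted p = 0.36), against 53.1 ± 7.78 and 50.4 ± 7.45 TPM without IL-25. Of 17 genes of retinoid and partner nuclear receptors 4 rose and 2 fell (4 after quantile normalization). Their median of 0.01 turned negative without replicate 1, 2 or 4 at 48 h or replicate 1 or 2 at 72 h. The retinoic acid receptor gene Rara rose from 10.1 ± 0.898 to 17.2 ± 3.33 TPM, the LXR gene Nr1h2 from 43.7 ± 3.91 to 59.6 ± 2.84 and the coactivator genes Ncoa3 from 26.04 to 32.9 and Ncoa2 from 5.88 to 8.24 (adjusted p up to 0.15). Dhrs3, which turns retinal back to retinol and is itself induced by retinoic acid, fell from 28.1, 20.8, 24.2 and 27.9 to 7.42, 8.34, 8.57 and 8.57 TPM without overlap, beside Pparg.

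The 12 largest rises and the 12 largest falls also held genes of none of these lists. Adgrg3, an adhesion G protein-coupled receptor, was at 1.88, 0.71, 2.11 and 1.98 TPM at 48 h and 25.8, 22.9, 21.5 and 22.8 at 72 h, 3.22 ± 0.21 log2 and the largest of the 12 named (adjusted p = 2.1e-11). Ly6g5b, of the Ly6 family, rose from 2.95 ± 1.68 to 29.1 ± 3.34, Dapk2, a death-associated kinase, from 3.04 ± 0.884 to 26.4 ± 5.17, Mab21l1 from 2.12 ± 0.645 to 17.7 ± 3.74 and Rgs11, a regulator of G protein signalling, from 2.03 ± 0.654 to 16.6 ± 2.76. Cd200r4, an activating relative of Cd200r1 with near-identical copies, rose from 4.72 ± 0.629 to 34.2 ± 3.64. The largest falls included Serpine2, a protease inhibitor (27.2, 19.5, 20.3 and 22.7 to 4.27, 5.48, 4.1 and 4.61 TPM), Pdzk1ip1 (12.4 ± 3.903 to 2.38 ± 1.15), Tmem109 (97.9 ± 8.69 to 30.6 ± 3.65), Ccdc50 (81.9 ± 3.44 to 27.3 ± 3.26) and Gemin4, of the SMN complex (17.8 ± 2.65 to 5.45 ± 5.08, with 2.25, 9.7, 9.84 and 0 TPM in the single 72 h libraries). Coq4, of coenzyme Q synthesis (15.8 ± 4.78 to 4.59 ± 2.18), and the mitochondrial deformylase gene Pdf (31.4 ± 4.57 to 10.8 ± 5.58) belonged to them as well.

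Set against the same day without IL-25, most glycolysis genes had a higher step with IL-25 and most ribosome biogenesis, mitochondrial ribosomal and heat shock genes a lower one. The difference was called higher with IL-25 for 26 of 34 glycolysis and hypoxia genes, 10 of 21 S100, galectin and annexin genes, 8 of 18 granule genes and 11 of 40 interferon and antigen processing genes, where 5.22% of all genes were, and lower for 42 of 77 mitochondrial ribosomal, 29 of 42 ribosome biogenesis, 11 of 16 heat shock and 15 of 34 proteasome genes, where 9.5% were. For DNA replication it was called lower for 5 of 48 and for cytosolic ribosomal proteins for 8 of 80 (and higher for 2), shares near that of all genes. The largest differences upward were those of Tnfrsf9, Gzma, Isg20, Pvrig (2.62 log2), Rgs11 (2.56) and Ly6g5b (2.52). Downward they were Pagr1a, Il9 (-2.13), Il24 (-2.12), Ccr7 (-2.06), Pdzk1ip1 (-1.87) and Serpine2 (-1.82). Pagr1a, a subunit of a histone methyltransferase complex, was scattered, at 17.6, 43.6, 23.4 and 11.9 TPM at 48 h and 1.28, 0, 8.07 and 19.7 at 72 h with IL-25 (adjusted p = 0.058, not called) and at 6.63 ± 7.73 and 15.4 ± 7.14 without it, so that its difference of -4.31 log2 (adjusted p = 0.026) rests on libraries that overlap. Epcam, the epithelial adhesion gene, rose with IL-25 and fell without it (104 ± 8.02 to 77.9 ± 8.12 TPM, adjusted p = 0.018). Its fall, like that of Gzma, was not called where the 2 groups without IL-25 were fitted alone. B2m, the light chain of MHC class I and outside the rule for names, rose in both: from 3593 ± 111 to 5191 ± 305 TPM with IL-25 and from 8756 ± 434 to 10631 ± 497 without (adjusted p = 8.1e-09 and 0.0097).

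**Figure D4:**
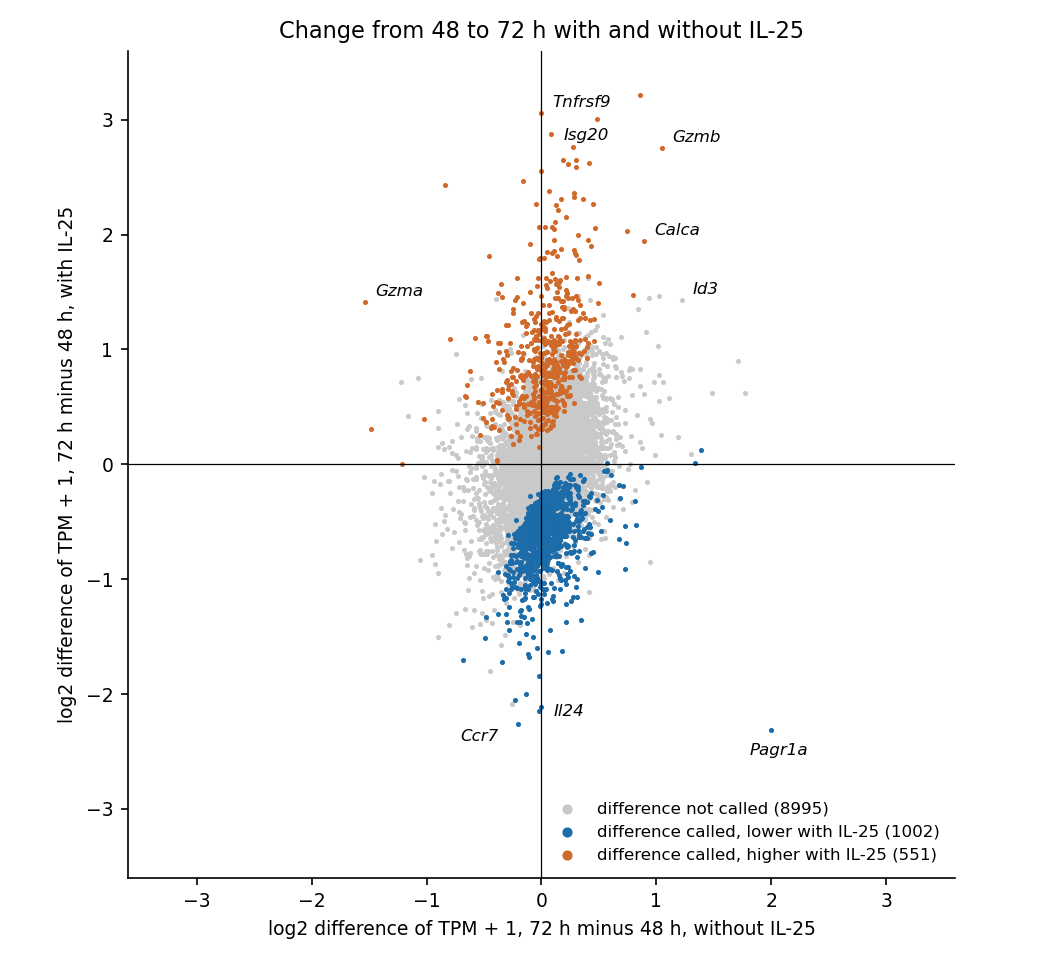
Log2 difference of TPM + 1 between 72 h and 48 h for the 10548 genes tested, without IL-25 on the x axis and with IL-25 on the y axis, each point a gene. Coloured points are the 551 genes with a called higher step (orange) and the 1002 with a called lower step (blue) with IL-25; Tnfrsf9 sits at 3.06 with IL-25 and 0.00 without, and Gzma at 1.41 and -1.54.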

How the data were processed

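RNA of bulk ILC2 cultures was sequenced with Smart-seq2, per the labels. The deposited values are TPM for 10799 genes in 24 culture libraries, and the filter by which the authors chose these genes is not given in the sources used here. The submitters' processing notes name cutadapt 2.10, STAR 2.7.5c, RSEM 1.3.3 and the build mm10, without a role or order. TPM keep no sequencing depth, so the depth of a library and its counting error are unknown. RSEM gives estimated values, so near-identical genes can share reads, and Smart-seq2 does not mark strand, so a gene and an overlapping antisense gene cannot be told apart.

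The 10548 genes that reached 1 TPM in 4 or more libraries were tested on log2(TPM + 1) with limma 3.58.1 in R 4.3.3: 1 mean for each of 6 groups over all 24 libraries, moderated two-sided tests with a mean-variance trend, and Benjamini-Hochberg adjustment over the 10548 genes. The contrasts were 72 h minus 48 h with IL-25, the same without IL-25, and their difference. The script was tested on simulated data. Named were 20 key genes, the 12 largest rises and 12 largest falls among called genes with a mean of at least 10 TPM and no overlap, the 6 highest and 6 lowest differences, up to 6 called members a list, every called member where 5 or fewer were called in a direction, and cell type markers. For the largest rises and falls, lack of overlap was a condition of being named and is no further result. The share of all genes without overlap is not given. Genes and lists (42 lists) were chosen with earlier results of these data known. Promoters came from a RefSeq table on GRCm38.p6, which matched 8506 of the 10548 tested genes by symbol, and 10701 of the 10799 symbols were in the reference gene table. Each alternative changed 1 choice: the pseudocount (0.1), the filter (none, or 5 TPM), the scaling (median of ratios, quantile), the groups fitted, array weights, a replicate block, and each library left out. Some genes that the rule names are not reported here.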

Additional observations from a re-analysis of the deposited data

Results flagged for a closer look

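The difference between the time steps was itself tested (limma, Benjamini-Hochberg over 10548 genes), with 4 libraries in each of the 4 groups. The step was called higher with IL-25 than without it for 551 genes and lower for 1002. Only 21 of these genes are given here. They are mostly key genes and the genes with the highest and lowest differences, so several were picked for the size of this difference. The step was higher with IL-25, in log2 of TPM + 1, for Tnfrsf9 (3.06, adjusted p = 2e-07), Gzma (2.95, adjusted p = 5.7e-05), Isg20 (2.79, adjusted p = 1.3e-08), Pvrig (2.62, adjusted p = 1.7e-05) and Rgs11 (2.56, adjusted p = 0.0041). It was also higher for Ly6g5b (2.52, adjusted p = 7.2e-06), Gzmb (1.70, adjusted p = 0.045), Areg (1.16, adjusted p = 0.007), Calca (1.05, adjusted p = 0.0084), Il1rl1 (0.60, adjusted p = 0.011) and Gata3 (0.55, adjusted p = 0.00078). The step was lower with IL-25 for Pagr1a (-4.31, adjusted p = 0.026), Il9 (-2.13, adjusted p = 0.035), Il24 (-2.12, adjusted p = 0.0011), Ccr7 (-2.06, adjusted p = 0.003) and Pdzk1ip1 (-1.87, adjusted p = 0.00019). A lower step was further called for Serpine2 (-1.82, adjusted p = 0.00014), Pparg (-0.82, adjusted p = 0.014), Il17rb (-0.72, adjusted p = 0.0003), Myc (-0.65, adjusted p = 0.00036) and Il2ra (-0.50, adjusted p = 0.019). Among these 21 genes, the cell surface and granule genes Tnfrsf9, Gzma, Gzmb and Pvrig stand on the higher side. The homing gene Ccr7, the cytokine genes Il9 and Il24 and the receptor genes Il17rb and Il2ra stand on the lower side. Tnfrsf9, Gzma, Pvrig, Ccr7, Il9 and Il24 were among the highest or lowest differences, so their place here is no further result. Il9 and Pagr1a had overlapping libraries at 48 and 72 h with IL-25.

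In 30 of the 466 groups of 4 libraries behind the 233 genes named here (6.44%), 1 library lay far from the other 3, by a gap that takes up most of the group's range (Dixon's 95% critical value for 4 values). Chance gives such a gap in about 1 in 20 groups, so this share is near that level. Replicate 1 at 48 h was the high library for Amd1 (72.3 TPM), Ikzf3 (154 TPM), Il17ra (10.98 TPM), Itga4 (105 TPM), Map3k8 (16.9 TPM), Ppib (746 TPM) and Psma3 (1005 TPM). Replicate 3 at 48 h was the high library for Hist1h2bq (1.73 TPM), Nr1h2 (49.6 TPM) and Tnfrsf9 (163 TPM). Replicate 4 at 48 h was the high library for Il22 (4.89 TPM). Replicate 1 at 48 h was the low library for Fdps (271 TPM). Replicate 2 at 48 h was the low library for Adgrg3 (0.71 TPM), Pdcd1 (15.9 TPM) and Tmem109 (84.9 TPM). Replicate 4 at 48 h was the low library for Kit (5.31 TPM). Replicate 1 at 72 h was the high library for Cish (162 TPM) and Csf2 (0.34 TPM). Replicate 2 at 72 h was the high library for Aldoc (48.1 TPM). Replicate 3 at 72 h was the high library for Irf4 (9.3 TPM). Replicate 4 at 72 h was the high library for Cdkn2d (139 TPM), Il22 (13.1 TPM), Mrps18b (118 TPM) and Npc2 (162 TPM). Replicate 2 at 72 h was the low library for Birc3 (38.2 TPM), Krt18 (9.77 TPM), Mrpl2 (34.5 TPM) and Plin3 (27.01 TPM). Replicate 3 at 72 h was the low library for Apoe (0.24 TPM). Replicate 4 at 72 h was the low library for Tnip1 (10.3 TPM). Replicate 1 at 48 h was apart for 8 of these genes, among them the proteasome gene Psma3, and replicate 4 at 72 h was the high library for Il22, as was replicate 4 at 48 h.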

How the results depend on the processing

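With IL-25, the counts of genes called higher (1412) and lower (1883) stayed within 1.5 times under all alternatives run, at 1215 to 1399 and 1564 to 1857 when 1 library of the 2 groups was left out and 1871 and 1646 by the median of ratios. The 383 genes of at least 2-fold became 639 with a pseudocount of 0.1. Without IL-25, the 30 higher became 17 with a pseudocount of 0.1, 15 by the median of ratios and 1 where the 2 groups were fitted alone. They ranged from 10 to 43 with 1 library left out, with 18, 10 and 14 without replicate 1, 2 or 4 at 48 h and 10 and 13 without replicate 3 or 4 at 72 h. The 10 lower became 32 by the median of ratios, 48 after quantile normalization, 0 fitted alone and 19 with array weights, and ranged from 1 to 11 with 1 library left out. For the difference, the 551 higher became 866 and the 1002 lower 606 by the median of ratios, and the lower 648 after quantile normalization. The cause of these shifts was not tested. Of 240 called genes named by the rule, 205 were called under all 16 alternatives, 35 lost the call under at least 1 and none changed direction, and 23 of 84 list counts moved by over 1.5 times.

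The labels number the libraries 1 to 4 in each group but do not say that a number pairs them. Deviations from the group means of libraries with the same number correlated at 0.00552, 0.02, 0.0344 and 0.0935 over genes. Those of libraries with different numbers correlated at -0.085 to 0.0429. Same-numbered libraries were not treated as pairs, and these values do not exclude a pairing. With a replicate block 1413 genes were called higher and 1871 lower with IL-25, 384 at least 2-fold, 34 higher and 11 lower without IL-25, and 539 higher and 988 lower for the difference. TPM give no depth, so the change that these libraries could have shown for genes at a few TPM is unknown.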

Other observations

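Further members of the gene lists that the rule named moved over the last day with IL-25. In the NF-kB list Icam1, an adhesion gene, rose from 17.02 ± 1.51 to 23.4 ± 1.87 TPM, the survival gene Birc3 from 32.1 ± 2.44 to 44.3 ± 4.11 and Nfkb1, a subunit gene of the factor itself, from 119 ± 12.1 to 149 ± 14.1. Among immediate early genes Ier3, a stress response gene (8.59 ± 3.405 to 17 ± 1.83), Klf10, a TGF-beta-induced repressor (7.12 ± 0.836 to 11.2 ± 0.7697), Zfp36, which destabilises cytokine messages (29.9 ± 2.37 to 40.03 ± 4.96), and the AP-1 gene Junb (218 ± 23.9 to 279 ± 34.9) rose. Over the alternatives the adjusted p reached 0.066 for Nfkb1, 0.074 for Ier3, 0.074 for Zfp36 and 0.068 for Junb. The signalling factor gene Stat3 (56.8 ± 9.82 to 84.7 ± 2.87) and the kinase gene Pim1 (41.6 ± 3.302 to 59.6 ± 8.79) rose in the cytokine signalling list. Among mitosis genes the falls were led by Smc2 and included Aurkb, a chromosomal kinase (112, 101, 119 and 117 to 76.7, 82.2, 92.99 and 74.8 TPM), Kif11, a spindle motor (16.4, 15.4, 14.3 and 13.1 to 8.02, 10.1, 10.7 and 9.31), Kif20b, a kinesin of cytokinesis (42.1 to 29.7), and Cenpf, a kinetochore gene (13.03 to 7.99). Adjusted p reached 0.41, 0.13, 0.18 and 0.21 over the alternatives for these 4. Ccng2, a cyclin of cycle arrest (5.12 ± 0.228 to 10.5 ± 0.973), and the inhibitor gene Cdkn2d (75.3 ± 6.28 to 132 ± 4.64) rose, while the stress gene Gadd45b (53.1 to 38.6, adjusted p up to 0.11) and the cyclin gene Ccng1 (88.3 to 61.2, up to 0.12) fell.

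Of 6 clustered histone genes Hist1h2bq alone was called, at 0, 0, 1.73 and 0.01 TPM at 48 h and 2.23, 2.35, 1.6 and 1.02 at 72 h (adjusted p = 0.0025), with 2 libraries at 48 h listed at 0. Among ribosomal protein genes the largest falls named were those of Rpl7l1, a ribosomal protein-like gene (163 ± 9.004 to 95.9 ± 13.3 TPM), and Rps2, of the small subunit (2639 ± 310.03 to 1452 ± 428, adjusted p up to 0.14). The mitochondrial ribosomal genes Mrpl2 (76.9 ± 12.2 to 41.5 ± 4.69), Mrps18b (200.3 ± 16.9 to 112 ± 3.67) and Mrps27 (43.6 ± 3.08 to 24.6 ± 3.11) fell. Among chaperones the cytosolic gene Hsph1 (46.5 ± 5.67 to 29.4 ± 2.23), Ahsa1, an activator of Hsp90 (331 ± 14.04 to 199 ± 10.3), and the mitochondrial chaperone gene Hspa9 (189.8 ± 20.3 to 107 ± 10.6) fell.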
